A study of Homo sapiens with 8 samples.

Results

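HSC3, an established line from a tongue squamous cell carcinoma, was profiled on 2 of the 8 arrays of the series, which together cover 4 oral squamous cell carcinoma (OSCC) lines. The members were the arrays whose titles name HSC3, and the remaining 6 arrays belong to SAS-L1, HSC2 and Ca9-22. Each line was reverse transfected with a mimic of mature human miR-375 or with the non-targeting control miR-NT, at 20 nM in both cases, and RNA was taken after 48 h. There was 1 array for each line and mimic, so the groups were HSC3 miR-NT, HSC3 miR-375 and the same pair in each of the other lines, with no untransfected cells and no second culture of any of them. In the study these arrays served to look for target genes of miR-375, which it had linked to lymph node metastasis. It also tested the mimic in cell assays, and reported less growth and less migration in all 4 lines. Of these, HSC3 had the smallest reported loss of migration. Here the HSC3 arrays were first set against the other lines, and then the difference between the HSC3 arrays was set beside the same difference elsewhere.

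A microRNA guides the silencing complex to messenger RNAs that pair with its seed, and the paired transcripts are degraded or translated less. A mimic raises one mature microRNA far above its usual level, so an array taken afterwards reads both the direct targets and whatever follows from their loss. OSCC lines keep the keratins and desmosomes of squamous epithelium to varying degrees and differ in mesenchymal, inflammatory and matrix genes. The mature sequence the mimic is named for is shown because its seed, in capitals at bases 2 to 8, is what selects targets (RefSeq, GRCh38.p14, chromosome 2, minus strand, 219001648 to 219001669).
hsa-miR-375-3p: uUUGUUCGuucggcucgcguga

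Signals are log2 values after robust multi-array averaging (RMA), in which 1 unit is a 2-fold difference. Of 18239 genes measured, each was read by its brightest probe set. The values ran from 2.54 to 13.10 over all arrays with a median of 4.98 and a lower quartile of 3.87, and the array medians lay between 4.96 and 5.00. RMA normalizes the arrays to one another, so close medians follow from the processing and are no check of the HSC3 arrays. With no detection calls, a signal near the lower quartile has no known distance from background, and a fold against it is a value on the RMA scale only.

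The labelled cell type was checked against its markers. HSC3 carried signals of squamous epithelium, beside bright markers of other kinds. KRT5, a keratin of basal keratinocytes, read 11.05 with miR-NT and 10.59 with the mimic. The epithelial adhesion genes CDH1 (9.63 and 9.93) and EPCAM (10.76 and 11.31) were bright on both arrays. The mesenchymal marker VIM (11.86 and 11.14) and KRT19, a keratin of simple epithelium (9.97 and 10.27), were bright too. CDH2, also on the mesenchymal panel, read 7.70 and 7.31. Of 12 fibroblast markers measured, 10 lay below the median of all values on both HSC3 arrays, as did 12 of 13 immune and endothelial markers. The same held for 7325 of all 18239 genes. PTPRC, the pan-leukocyte marker, read 3.15 and 3.17.

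Among the genes that passed the test between HSC3 and the other 3 lines, the largest differences were in a cancer-testis antigen, a Wnt antagonist and the main basement membrane collagens. MAGEA4, a cancer-testis antigen of the germ line, read 9.34 with miR-NT and 9.97 with the mimic in HSC3, against a lowest, median and highest signal of 3.18, 3.44 and 3.46 in the other 6 arrays. The difference was 6.28 ± 0.32 (SE) on the log2 scale, with an adjusted p of 0.00466 by limma with the mimic as a term and the line as a random block. Its 3 probe sets all placed HSC3 above the other arrays. SFRP5, a secreted antagonist of Wnt ligands, read 7.76 and 8.85 in HSC3 against 3.66, 3.68 and 3.74 elsewhere, a difference of 4.62 ± 0.45 (adjusted p = 0.0391). In both genes the other lines lay under the lower quartile of all values, and the groups were far from overlapping.

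COL4A1 and COL4A2, the paired chains of the widespread type IV collagen, were low in HSC3. COL4A1 read 4.35 and 4.78 in HSC3 against 8.70, 9.59 and 10.04 in the other arrays, a difference of -4.87 ± 0.44 (adjusted p = 0.0368). COL4A2 read 4.75 and 5.03 against 8.48, 8.78 and 9.57, a difference of -3.96 ± 0.34 (adjusted p = 0.0317). All 3 probe sets of each gene placed HSC3 below the other arrays. The chains COL4A5 and COL4A6, which form another type IV network, lay the other way. COL4A5 read 8.27 and 8.98 in HSC3 against at most 8.07 elsewhere, and COL4A6 read 8.08 and 9.01 against at most 7.79, although neither passed the test (adjusted p = 0.81 and 0.64).

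In all, 11 genes were higher (0.0603% of those tested) and 11 were lower (0.0603%) in HSC3 at an adjusted p under 0.05, and both HSC3 arrays lay outside the other 6 in each of them. The other higher genes included OPN3, an opsin expressed outside the eye (8.38 and 8.03 against 4.84, 5.53 and 5.61), CHST15, a chondroitin sulfotransferase (7.15 and 7.45 against 4.50, 4.80 and 5.56), and ST6GALNAC5, a sialyltransferase (6.31 and 6.15 against 4.65, 4.69 and 4.74). The remaining 6 were GPRASP2, NLRP7, TRAM2, SPRYD4, MROH6 and CORO6. Among the other lower genes were the mitochondrial ribosome proteins MRPL9 (7.79 and 7.76 against 9.31, 9.74 and 9.83) and MRPL2 (4.02 and 3.94 against 5.36, 5.49 and 5.61). MRS2, the magnesium channel of the inner mitochondrial membrane, read 5.88 and 5.78 against 7.44, 7.66 and 7.94, with all 7 probe sets lower in HSC3. ANKH, SEC13, CD2AP, TCEAL8, UGGT2 and GADD45GIP1 made up the rest. In some called genes not every probe set placed HSC3 outside the other arrays: MRPL9 (2 of 4), UGGT2 (3 of 5), CHST15 (2 of 3) and TRAM2 (2 of 3).

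These calls depended on how the spread between lines was estimated: with 1 mean per line there were 0 in either direction (1037 genes at an unadjusted p under 0.05, smallest adjusted p 0.0817), and without Ca9-22 there were also 0 (1629 unadjusted). Without SAS-L1 there were 3 higher and 6 lower, and without HSC2 6 and 3. These were partly other genes: of the 22 called on all arrays, 2 were still called without SAS-L1 and 6 without HSC2.

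**Figure D1:**
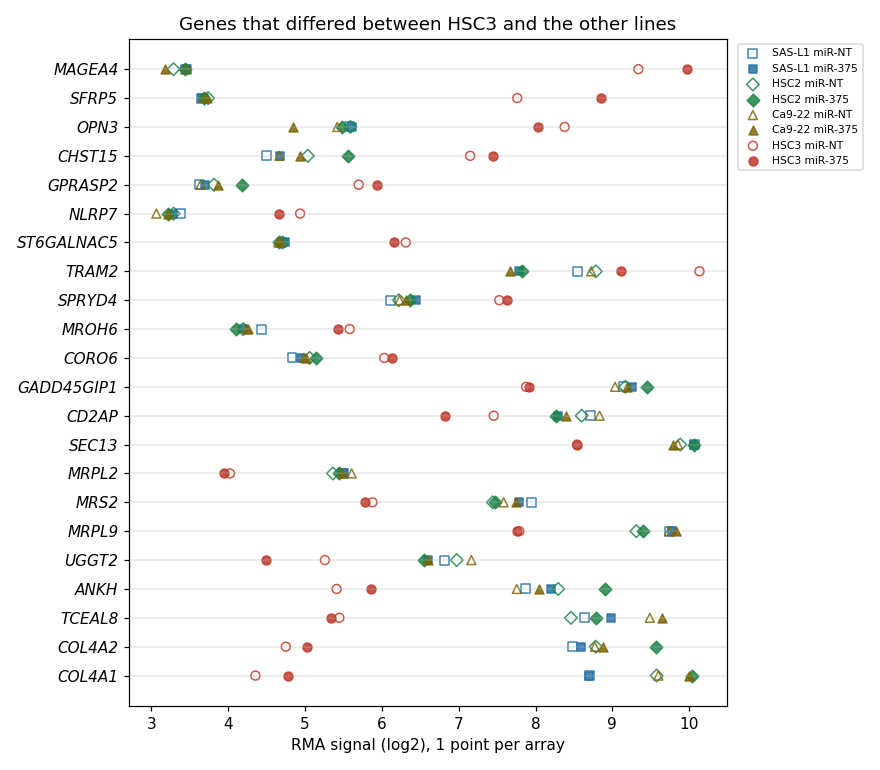
RMA signal (log2) of each array for the 22 genes that passed the test between HSC3 and the other lines, with open symbols for miR-NT and filled symbols for miR-375. In every gene both HSC3 arrays lie on one side of the other 6, with MAGEA4 at 9.34 and 9.97 against at most 3.46.

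Some genes with a wide gap to every other array did not pass the test. Both HSC3 arrays lay at least 4-fold above all others in 7 genes (0.0384%) and at least 4-fold below in 6 (0.0329%), a limit set after the values were seen. VIM, the intermediate filament of mesenchymal cells, read 11.86 and 11.14 in HSC3 against 5.87, 7.01 and 7.88 (adjusted p = 0.158). Of 42 measured genes of the mesenchymal list 3 lay above the other arrays (7.14%, against 6.62% of all genes) and 4 below (9.52%, against 12.2%), close to the shares over all genes. CDH2, or N-cadherin, was among the latter at 7.70 and 7.31 against 8.06, 8.41 and 8.81, and ZEB1, a repressor of epithelial genes, read 4.32 and 4.23 against 4.25 to 4.59. High VIM in HSC3 stood beside bright CDH1 and a CDH2 signal that was lower than in the other lines, in 1 of its 2 probe sets.

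The other wide gaps upward were in C1S, a protease of the classical complement pathway (7.34 and 8.83 against 3.50, 3.78 and 3.87), SERPINB7 and CFAP251, next to MAGEA4, SFRP5 and OPN3. Downward, LCP1, an actin-bundling plastin, read 4.38 and 4.47 against 8.32, 11.08 and 11.39. PEG10, a retrotransposon-derived imprinted gene, read 3.68 and 3.45 against 6.08, 8.35 and 9.69, although 1 of its 3 probe sets did not place HSC3 below. MAGED1, a MAGE family member outside the cancer-testis group, read 4.79 and 4.79 against 7.51, 8.86 and 9.71.

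Over all genes, both HSC3 arrays lay above the other 6 in 1208 (6.62%) and below them in 2233 (12.2%). Counted the same way, SAS-L1 lay above the rest in 9.53% and below in 9.10%, HSC2 in 9.19% and 7.24%, and Ca9-22 in 11.3% and 7.08%, so HSC3 had the smallest share above and the largest below. The gene lists are read against these shares, as counts with no test. Inflammatory genes were above more often than that. Of 40 measured cytokine and NF-kB feedback genes, 10 lay above all other arrays (25%) and 1 below. IL1B, the main inflammasome cytokine, read 11.07 and 10.08 against 6.50, 7.44 and 9.36. IL24 read 8.29 and 7.27 against 4.73, 4.95 and 5.70, and TNF read 7.94 and 7.75 against 4.53, 5.32 and 6.38. None of the 10 passed the test, with adjusted p between 0.13 for CSF3 and 0.92 for CXCL8.

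Antigen presentation, glycolysis and NRF2 genes were also above more often. In the antigen presentation list 7 of 28 lay above (25%) and 2 below, among them ERAP1, which trims peptides for MHC class I (8.80 and 8.78 against 7.30, 7.57 and 7.98). Of 34 glycolysis and hypoxia genes 8 lay above (23.5%), with PFKP, a phosphofructokinase, at 10.14 and 9.92 against 7.87, 8.88 and 9.41. GAPDH, often used as a reference gene, was among these 8 at 12.62 and 12.60 against at most 12.56. In the NRF2 list 9 of 43 lay above (20.9%). GCLC, the catalytic subunit for the first step of glutathione synthesis, read 9.12 and 9.84 against 6.31, 7.12 and 7.80, whereas GSTP1, a glutathione transferase, lay below at 9.19 and 9.91 against 10.54, 10.68 and 10.80.

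TGF-beta and BMP, cell cycle and lipid synthesis genes were below more often. Of 32 TGF-beta and BMP genes 9 lay below all other arrays (28.1%) and 0 above. ID3, a BMP-induced inhibitor of helix-loop-helix factors, read 5.20 and 5.93 against 6.31, 7.79 and 9.82. PMEPA1, a feedback inhibitor of TGF-beta signaling, read 6.69 and 6.84 against 6.89, 9.80 and 10.91, so that its distance from the nearest array was small. Of 57 cell cycle genes 14 lay below (24.6%) and 3 above. CDT1, which loads the replicative helicase, read 6.61 and 5.92 against 7.71, 7.90 and 8.79, while CCND2, a G1 cyclin, lay above at 10.90 and 10.01 against 3.59, 6.12 and 9.0. Of 32 cholesterol and fatty acid genes 7 lay below (21.9%), with CYP51A1, a sterol demethylase, at 8.11 and 8.28 against 9.56, 10.01 and 10.54. None of the genes named here from the lists passed the test.

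**Figure D2:**
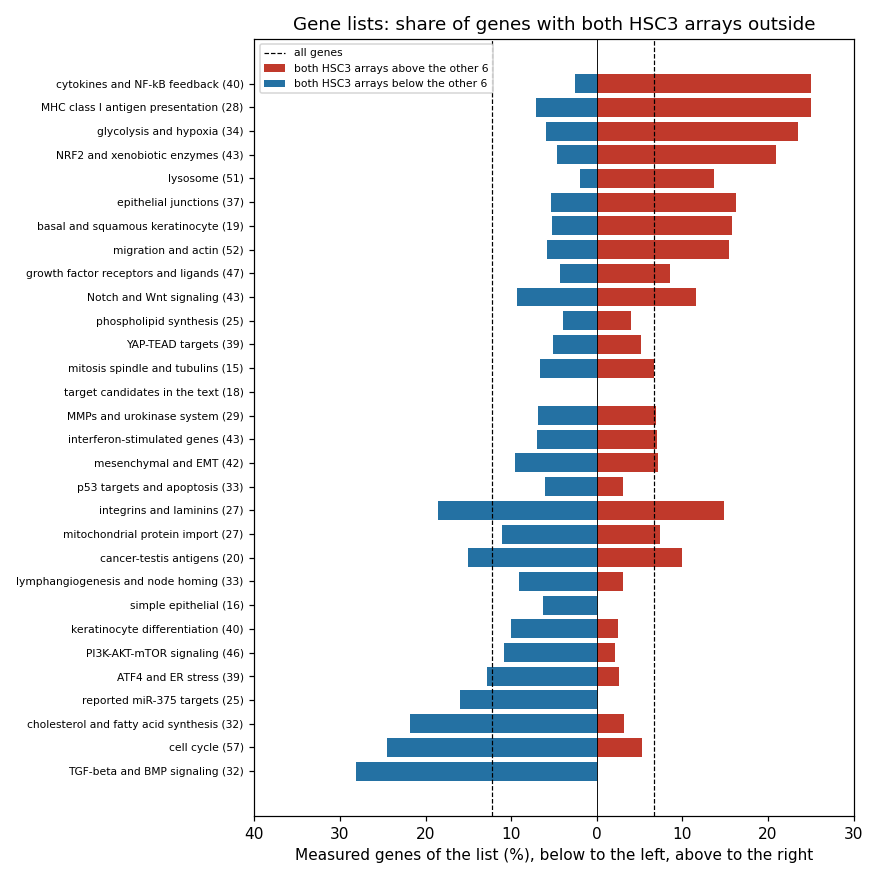
Share of the measured genes of each list (number in brackets) in which both HSC3 arrays lay above the other 6 arrays (right) or below them (left), with dashed lines at the shares over all genes, 6.62% and 12.2%. The cytokine list reaches 25% above, and the TGF-beta and BMP list 28.1% below with 0 above.

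The mimic arrays were then compared with the miR-NT arrays. HSC3 had more genes past 2-fold than any other line: 402 lower (2.20%) and 250 higher (1.37%), against 107 (0.587%) and 67 (0.367%) in SAS-L1, 213 (1.17%) and 74 (0.406%) in HSC2, and 369 (2.02%) and 171 (0.938%) in Ca9-22. These are differences between single arrays, with no test. The SD of the differences over genes was 0.40 in HSC3, 0.27 in SAS-L1, 0.32 in HSC2 and 0.38 in Ca9-22. Whether the larger spread comes from the mimic or from the pair of cultures cannot be told apart with 1 array on each side.

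Much of what was lower in HSC3 was lower elsewhere too. Of the 402 genes, 210 were also past 2-fold in Ca9-22 (52.2% of the HSC3 genes and 56.9% of those of Ca9-22), 157 in HSC2 (39.1% and 73.7%) and 70 in SAS-L1 (17.4% and 65.4%), and 51 were past it in all 4 lines. The genes higher with the mimic were shared less: 53 with Ca9-22 (21.2% and 31.0%), 28 with HSC2 (11.2% and 37.8%) and 24 with SAS-L1 (9.6% and 35.8%), with 4 in all lines. In HSC3 and no other line, 162 genes were lower and 173 were higher.

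The genes with the largest decreases in HSC3 were mostly low in every mimic array. PSIP1, a chromatin reader, went from 8.69 with miR-NT to 5.22 with the mimic in HSC3, a difference of -3.46, against -2.06 in SAS-L1, -3.27 in HSC2 and -2.85 in Ca9-22. Its probe sets disagreed, from -3.46 to 0.06. QKI, an RNA-binding regulator of splicing, went from 8.44 to 5.38, a difference of -3.06 against -1.91, -2.61 and -2.95. MAT2B, the regulatory subunit of methionine adenosyltransferase, went from 10.33 to 7.85, a difference of -2.48 against -1.99, -2.78 and -2.80. With the mean of all probe sets the HSC3 difference was -1.48 for PSIP1 and -1.99 for QKI. In these genes HSC3 lay within or close to the range of the other lines.

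Other genes had a larger decrease in the HSC3 pair than in the other 3 pairs, without passing the test of that difference. In CCN2 and NEXN the other lines started lower, which left less room for a decrease. With miR-NT, CCN2 read 4.69 in SAS-L1, 3.18 in HSC2 (under the lower quartile) and 5.44 in Ca9-22. NEXN read 4.67, 4.13 and 5.13 there, near or under the median of 4.98. CCN2, a matricellular protein and common readout of YAP, went from 7.18 to 3.91 in HSC3, a difference of -3.27, against 2.12 in SAS-L1, 0.18 in HSC2 and -0.80 in Ca9-22. All 3 of its probe sets were lower in HSC3, by between 2.04 and 3.27 in size, and the adjusted p of the difference from the other lines was 0.49. NEXN, an actin-binding protein, went from 7.25 to 4.57, a difference of -2.68 against -0.48, -0.11 and -1.09 (adjusted p = 0.30). DUT, which removes dUTP from the nucleotide pool, went from 9.28 to 6.92, a difference of -2.36 against -0.26, -1.10 and -1.24 (adjusted p = 0.47).

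The largest increases were less alike between lines. GDF15, a stress-induced TGF-beta family cytokine, went from 4.03 to 7.02 in HSC3, a difference of 2.99 against 1.02, 0.90 and 1.95. S100A9, a calcium-binding protein of inflamed epithelium, went from 5.26 to 8.10, a difference of 2.84 against 0.58, 1.56 and 0.03. GPNMB, a lysosome-associated glycoprotein, went from 7.12 to 9.59, a difference of 2.47 against 1.03, 1.44 and 1.22, and its 5 probe sets lay between 2.42 and 3.39. MMP3, a stromelysin, went from 7.80 to 10.23, a difference of 2.43 against 0.51, -0.57 and -0.04. MAF and H2BC21 had probe sets that disagreed, from -0.10 to 3.19 and from 0.18 to 2.53, and with the mean of probe sets they differed by 1.53 and 0.96.

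**Figure D3:**
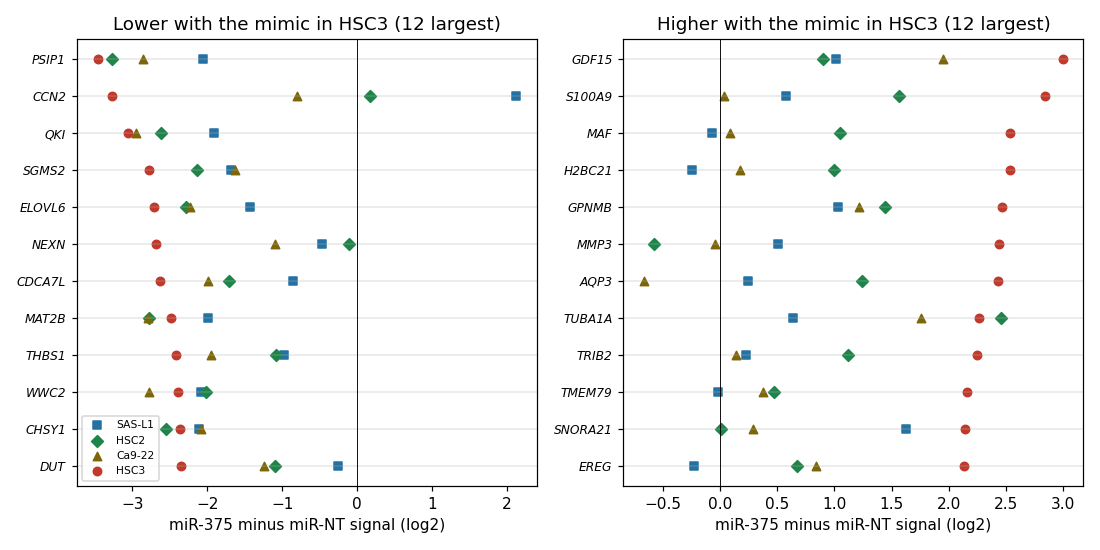
Difference between the miR-375 and miR-NT arrays (log2 signal) in each line for the 12 genes with the largest decreases (left) and increases (right) in HSC3, with 1 point per line and no error since each is 1 pair of arrays. PSIP1 and QKI are low in every line, whereas CCN2 is at -3.27 in HSC3 and 2.12 in SAS-L1.

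The candidate targets named in the study were low in HSC3 as in the other lines. These were picked by the study on these arrays, so their direction is not independent evidence. Of 18 measured, 17 were more than 2-fold lower in HSC3, with a median difference of -1.41 against 0.04 over all genes, and medians of -0.87 in SAS-L1, -1.29 in HSC2 and -1.63 in Ca9-22. The exception was TIMM8A, a chaperone of mitochondrial protein import, which went from 6.17 to 6.04, and its 2 probe sets disagreed at -0.12 and -1.65, with -0.89 for their mean. With the mean of probe sets, the candidates MBD2 and MOB1A were not past 2-fold either, at -0.69 and -0.96. The probe sets of MBD2 ran from -1.54 to 0.05. YAP1, the transcriptional coactivator of the Hippo pathway, is not one of these candidates but a target reported elsewhere. It went from 10.28 to 8.45 in HSC3, a difference of -1.83 against -1.63, -2.10 and -2.07. Its 8 probe sets ran from -2.03 to -0.53 in HSC3, with -1.34 for their mean. Of 25 genes reported elsewhere as miR-375 targets, 7 were more than 2-fold lower in HSC3, and the median difference was -0.11. MTDH, an oncogenic adaptor among them, went from 9.62 to 7.63, a difference of -1.98. By contrast JAK2 went from 4.60 to 4.82 and IGF1R from 7.75 to 8.05.

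Cell cycle genes were mostly lower with the mimic in HSC3, and their medians in the other lines were near 0. The median difference over 57 genes was -0.68 in HSC3, against 0.12 in SAS-L1, -0.07 in HSC2 and 0.02 in Ca9-22, and 10 of the 57 lay past 2-fold downward, with 0 upward, against 1 downward in SAS-L1 and 4 in each of HSC2 and Ca9-22. TYMS, which makes thymidylate, went from 10.74 to 8.50, a difference of -2.24 against -0.61, -1.23 and -1.01. CDC25A, the phosphatase that activates CDK2, went from 8.08 to 6.43, a difference of -1.64 against 0.05, -0.22 and -0.29. CDC6, a helicase loader, went from 9.33 to 7.76, a difference of -1.57 against -0.12, -0.61 and -0.86.

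The helicase subunits MCM2 to MCM7 all lay lower in HSC3, from MCM6 at -1.17 to MCM5 at -0.71, while MCM6 read 0.37, -0.07 and -0.29 in the other lines. PCNA, the replication clamp, was lower by less, at -0.68 against 0.18, -0.06 and 0.14. CCNE2, an S-phase cyclin, lay at -0.81 in HSC3 and at 0.78, 0.14 and 0.85 elsewhere. CDKN1B, the cyclin-dependent kinase inhibitor p27, lay the other way at 0.54 against 0.12, 0.13 and 0.17.

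The difference of responses was put to a test, with HSC3 as 1 pair against 3. At an adjusted p under 0.05 there were 0 genes lower (0.00%) and 0 higher (0.00%) in HSC3 by limma, and the smallest adjusted p was 0.237. At an unadjusted p under 0.05 there were 640 lower (3.51%) and 619 higher (3.39%). Of the 57 cell cycle genes, 30 were among the 640 and 1 among the 619. The same 4 pairs gave the medians above, so these counts are another description of them.

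Replication genes share a class of promoter element, which is shown here for the cell cycle genes that were more than 2-fold lower in HSC3. The letters searched on both strands were TTTCCCGC, TTTGGCGC, TTTCGCGC and TTTGCCGC, the common forms of the E2F site, in the 250 bases before and 50 after each RefSeq start. They were chosen after the values were seen. A match was found in 3.33% of 27305 promoters and in 4.54% of the 14492 of genes on the arrays. In the cell cycle list it was found in 14 of 46 promoters (30.4%) and in 5 of 8 of those past 2-fold (62.5%). The 46 and 8 promoters do not cover all of the 57 measured genes and the 10 past 2-fold. The 5 windows, read 5′ to 3′ on the strand of the gene with the match in capitals (GRCh38.p14), lie at chr3:127598402-127598431 (plus) for MCM2, chr2:135876577-135876606 (minus) for MCM6, chr3:48188443-48188472 (minus) for CDC25A, chr18:657603-657632 (plus) for TYMS and chr17:40287875-40287904 (plus) for CDC6. A match describes the letters and not a bound site.
MCM2: cgtgaaccactTTTCGCGCgaaacctggtt
MCM6: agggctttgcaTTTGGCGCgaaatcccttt
CDC25A: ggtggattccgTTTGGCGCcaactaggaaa
TYMS: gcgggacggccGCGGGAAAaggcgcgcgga
CDC6: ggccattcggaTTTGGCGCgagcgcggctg

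Over all genes, 45 were more than 2-fold lower in HSC3 while staying within 0.5 in each other line, and 62 were higher in the same way. On the cell cycle list were 3 of the 45, CDC25A, CDK2 and MCM6, and replication genes outside that list such as RFC3 were among them too. RIMS2, a synaptic scaffold protein, went from 5.69 to 3.96 in HSC3, a difference of -1.73 against 0.05, 0.16 and 0.13. RFC3, a subunit of the clamp loader, went from 9.32 to 7.76, a difference of -1.56 against 0.14, -0.32 and -0.20, although its 4 probe sets ran from -1.58 to -0.05. Among the higher genes were complement components. CFB, complement factor B, went from 6.75 to 8.79, a difference of 2.04 against -0.06, 0.32 and 0.27. C1S, which read above all other arrays with miR-NT too, went from 7.34 to 8.83, a difference of 1.49 against 0.00, -0.04 and 0.06. SCD, the stearoyl-CoA desaturase, went from 8.31 to 10.06, a difference of 1.75 against 0.19, -0.02 and 0.14.

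ID2, a helix-loop-helix inhibitor downstream of BMP, was the reverse case. It read 3.26 and 3.30 in HSC3, a difference of 0.04, and was higher with the mimic by 2.16 in SAS-L1, 1.67 in HSC2 and 1.88 in Ca9-22 (adjusted p = 0.237 for the difference). Both HSC3 signals lay under the lower quartile of all values, so that ID2 was dim in HSC3 with either mimic.

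Lysosomal, interferon and NRF2 genes were higher with the mimic in HSC3. The lysosome list had a median difference of 0.49 in HSC3, against 0.22, 0.33 and 0.33 in SAS-L1, HSC2 and Ca9-22, with 9 of 51 more than 2-fold higher and 0 lower (1.37% of all genes were higher in HSC3), and 6 higher in Ca9-22, 2 in HSC2 and 2 in SAS-L1. ASAH1, acid ceramidase, went from 7.92 to 9.70, and LIPA, lysosomal acid lipase, from 9.02 to 10.36. The interferon list had a median of 0.41 against 0.19, -0.11 and 0.20, with 7 of 43 more than 2-fold higher and 1 lower. Ca9-22 also had 7 higher and 2 lower, SAS-L1 had 1 and 1, and HSC2 had 0 and 2. IFITM1, an antiviral membrane protein, differed by 1.25 in HSC3 against 0.22, 0.06 and 0.12, while IFIT2 differed by 1.35 against 1.33, -0.01 and 1.91. In the NRF2 list 6 of 43 were more than 2-fold higher and 0 lower, against 1 higher in Ca9-22, 0 in HSC2 and 1 in SAS-L1, with AKR1C2, an aldo-keto reductase, going from 9.21 to 10.75.

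YAP-TEAD and basal keratinocyte genes showed both patterns. The YAP-TEAD list had a median of -0.45 in HSC3 against -0.18, -0.23 and -0.18, and 9 of 39 were more than 2-fold lower (2.20% of all genes), as were 9 in Ca9-22, 6 in HSC2 and 4 in SAS-L1. The HSC3 median of this list moved with the processing, to -0.28 with the mean of probe sets and -0.57 without dim genes. CCN1, a close relative of CCN2, lay at -0.92 against 0.32, -0.03 and -0.07, whereas NT5E, the ecto-nucleotidase CD73, lay at -2.25 against -2.14, -0.97 and -2.56. The basal keratinocyte list had a median of -0.01 in HSC3 (-0.13 without dim genes) against -0.49, -0.53 and -0.39. Even so, 4 of its 19 genes were more than 2-fold lower in HSC3 and 0 higher. In SAS-L1 and HSC2 4 were lower as well, and in Ca9-22 8. KRT5 differed by -0.46 in HSC3 and by -2.48, -1.31 and -2.68 in the other lines, and KRT15, another basal keratin, by 0.88 against -0.51, -0.53 and -1.08. KRT14, the partner of KRT5, did not follow it, at -1.62 against -0.56, -1.52 and -0.07.

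**Figure D4:**
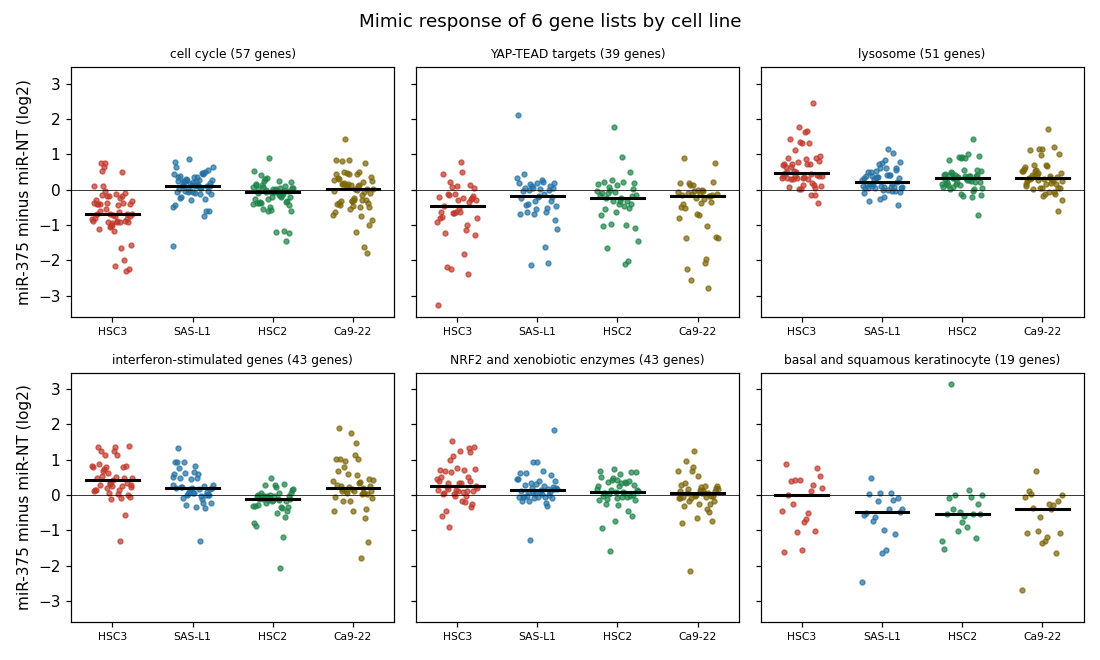
Difference between the miR-375 and miR-NT arrays (log2 signal) for the measured genes of 6 lists in each line, with 1 point per gene and a bar at the median. The cell cycle median is -0.68 in HSC3 and between -0.07 and 0.12 in the other lines, and the lysosome median is above 0 in all 4.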

How the data were processed

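Total RNA of 4 OSCC lines, each with miR-NT or miR-375, was hybridised to Affymetrix Human Genome U219 arrays. The deposited values are log2 signals per probe set, which the authors made by RMA in GeneSpring. The labels and the study's methods name different versions of the 3′ labelling kit, and no genome build is given in the sources used here. Of 49386 probe sets, 45259 carried 1 gene symbol, 1327 several and 2800 none, and 45178 were matched to RefSeq gene IDs. The probe set with the highest mean stood for each of 18239 genes, and 11823 genes had more than 1.

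HSC3 was compared with the other lines by limma 3.58.1 in R 4.3.3, with the mimic as a term and the line as a random block (within-line correlation 0.63), and Benjamini-Hochberg adjustment over all genes. Responses were compared by limma on the 4 differences. The labels name no separate cultures within a group, and the comparison of lines also rests on 1 line against 3. The p-values therefore measure the spread between lines and arrays, and none measures the spread between cultures of HSC3. Fits were tested on simulated data. The genes named were, for identity, the 15 largest called differences in each direction and, from every list, at most 4 genes taken in order of p; for the response, the 12 largest differences in each direction among genes with an HSC3 array above the median; and the 12 smallest p in each direction for the difference of responses. Other genes, such as single members of the response lists, were chosen after their values were seen. The members and gene lists were chosen with earlier results of these data known. Alternatives covered the choice of probe set, normalization, filtering, the model and leaving out each line or HSC3 array.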

Additional observations from a re-analysis of the deposited data

How the results depend on the processing

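Counts moved most with the model for the lines. The numbers of genes higher and lower in HSC3, 11 each, became 161 and 162 without a block for the line, 2074 and 2335 with lines as fixed terms, 18 and 18 without a term for the mimic, and 0 and 0 with 1 mean per line, with the miR-NT arrays alone (905 unadjusted) and with the miR-375 arrays alone (1085 unadjusted). Over all probe sets they were 24 and 19, and without dim genes 1 and 0. The lower count was 5 with the mean of probe sets and 6 with a robust variance trend. Leaving out a line or an HSC3 array gave 0 to 12 higher and 0 to 6 lower. Genes with both HSC3 arrays outside numbered 3446 above and 4756 below over all probe sets, 1440 below without dim genes, and 1777 to 2781 above and 2882 to 4561 below when a line or HSC3 array was left out. Genes past 2-fold in HSC3 numbered 1044 lower and 507 higher over all probe sets, and 158 higher with the mean of probe sets. At 1.5-fold they were 1031 and 1082, and at 4-fold 34 and 16. The test of the difference of responses gave 0 genes under every alternative run, leaving out each other line included (0 to 0), with 926 to 3070 at an unadjusted p under 0.05. The cell cycle median in HSC3 lay between -0.72 and -0.58 under the 4 alternatives run. The cause of these shifts was not tested. The number of arrays, 1 per line and mimic, limits the precision of every value.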

Other observations

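Other list genes had both HSC3 arrays outside the rest or a larger mimic difference in HSC3, and none of those given here passed a test. They were chosen after their values were seen. LGR4, a receptor for R-spondins, read 7.51 and 7.86 in HSC3 against 4.99, 5.57 and 5.90 in the other arrays, and DKK3, a secreted Dickkopf family protein, read 10.14 and 10.12 against 8.06, 8.24 and 9.03. CTSS, a lysosomal cysteine protease, read 7.37 and 7.46 against 4.58, 5.00 and 5.96. PLAT, tissue plasminogen activator, read 7.86 and 9.08 against 6.13, 6.56 and 6.96, and its mimic difference was 1.22 in HSC3 against -0.10, 0.10 and -0.05. ADAMTS1, a matrix metalloprotease, lay at -2.19 in HSC3 with the mimic against -0.33, -1.02 and -0.96. ABCA1, a cholesterol exporter, read 4.56 and 5.28 in HSC3 against 6.54, 7.22 and 7.92.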
